A study of Mus musculus with 8 samples.

Results

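Glycolysis breaks glucose down to pyruvate in the cytosol. Glucose enters through transporters of the Slc2a family and is trapped by hexokinase, the flux is set largely at hexokinase, phosphofructokinase and pyruvate kinase, and pyruvate is either reduced to lactate by lactate dehydrogenase and exported through monocarboxylate transporters or oxidized in mitochondria. The pyruvate dehydrogenase kinases hold back that oxidation. Tumors commonly run this pathway to lactate even where oxygen is present. The 35 genes described here cover glucose uptake, each step to pyruvate, and the bifunctional enzymes that set the allosteric activator of phosphofructokinase. They also cover lactate production and export, the pyruvate dehydrogenase kinases, the phosphoglucomutases, and the synthase and branching enzyme of glycogen. The list was chosen by name as a pathway, with earlier results of these data known. All 35 were found among the 48709 genes of the table, of which 14929 passed the filter on low counts, all 35 members among them.

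RNA was sequenced from 4 K-Ctrl and 4 K-Setd2KO mouse lung tumors. All mice shared the background that the labels write as K, and tumors were started by a LentiCRISPRv2Cre lentivirus delivered to the lung that carries Cre, Cas9 and a single guide RNA, against GFP in K-Ctrl and against Setd2, which encodes the enzyme that places the third methyl group on H3K36, in K-Setd2KO. The sample labels call the tumors lung adenocarcinoma, while the study describes the K-Setd2KO tumors as low grade adenomas matched to the controls by histology. Neither the age of the mice nor the time of harvest is given in the labels, and no drug treatment is listed. The tumors were not sorted, so each library mixes tumor cells with the other cells of the lesion, and the labels do not say whether the tumors of a group came from separate mice, so that p-values measure the spread between these tumors only.

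Total counts ran from 5806599 in K-Setd2KO 4 to 21290402 in K-Ctrl 3. Setd2 RNA itself did not separate the groups, at 132 to 153 CPM (counts scaled to 1000000 per library) in K-Ctrl and 121 to 153 CPM in K-Setd2KO (log2 fold change -0.05, standard error of the fit (SE) 0.115, edgeR adjusted p = 0.824). A count over the whole gene does not read a small CRISPR edit, so the genotype rests on the labels. Markers of alveolar type 2 cells, surfactant genes among them, were abundant in every tumor, with a summed level of 43951 to 65002 CPM in K-Ctrl and 52964 to 73829 CPM in K-Setd2KO. The leukocyte markers fell, 6 of 6, from a summed 496 to 924 CPM in K-Ctrl to 176 to 230 CPM in K-Setd2KO. By Xist against Y-linked genes, 1 K-Ctrl tumor (K-Ctrl 2) and 3 K-Setd2KO tumors (1, 2 and 4) were female.

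Glycolysis genes were higher in K-Setd2KO tumors along most of the route from glucose uptake to lactate export. The members took 0.308, 0.329, 0.331 and 0.324% of all counts in K-Ctrl tumors 1 to 4 and 0.568, 0.475, 0.513 and 0.511% in K-Setd2KO tumors 1 to 4, with no overlap between the groups (0.323% ± 0.0106 against 0.517% ± 0.0382, SD, n = 4). Of 35 members, 12 rose (34.3%) and 0 fell in edgeR's quasi-likelihood test at a Benjamini-Hochberg adjusted p under 0.05 over all genes tested, the rule for a call throughout. The share of all tested genes that rose was 4.97% and the share that fell was 7.74%. Since the list was chosen with earlier results of these data known, such contrasts with all tested genes are a description only. At an unadjusted p under 0.05, 6 more members differed, of which Pfkp alone was lower, making 18 of 35 (51.4%) against 29.9% of all tested genes. In DESeq2, 16 members rose, with Gpi1, Fbp1, Pdk1 and Pgm1 added, and 0 fell. The log2 fold change was positive for 27 members and negative for 8, and its median was 0.39, against 0.03 over all tested genes. In 15 members (42.9%) every K-Setd2KO tumor lay above every K-Ctrl tumor, as in 9.06% of all tested genes, and in 1 member, Pfkp, every K-Setd2KO tumor lay below, as in 11.2%. The 12 that rose were Slc2a1, Hk2, Pfkl, Aldoa, Tpi1, Gapdh, Pgk1, Eno1, Pkm, Ldha, Slc16a1 and Gys1, with log2 fold changes from 0.48 for Pgk1 to 1.55 for Tpi1.

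**Figure D1:**
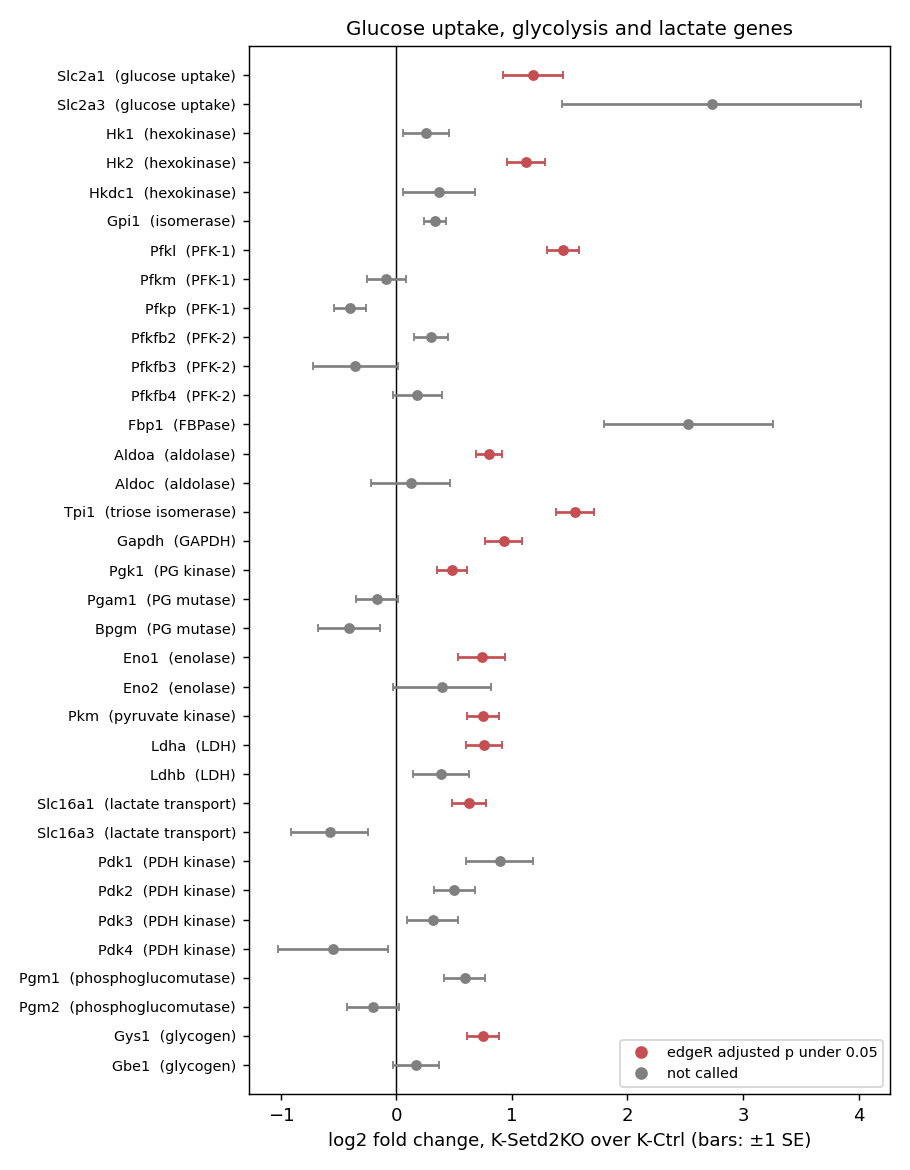
Log2 fold change of each of the 35 members, K-Setd2KO over K-Ctrl (x axis), ordered by step of the pathway (y axis), with bars of 1 SE from edgeR and n = 4 tumors a group. Red points mark the 12 members with an adjusted p under 0.05, which lie between 0.48 and 1.55, and gray points the 23 that were not called.

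The promoters of 4 of the risen members are shown because these 4, of the 12 that rose, have a RefSeq start site within 5 bases of the start of the gene as counted. Each sequence is the 250 bases before the start site, written in the direction of transcription, on GRCm38.p6 coordinates. Capitals mark ACGTG or GCGTG on either strand, the core letters bound by HIF and, as CACGTG, by MYC, USF and ChREBP, factors known for glycolytic genes. The Hk2 window is chr6:82774455-82774704 on the minus strand, the Pgk1 window chrX:106186850-106187099 on the plus strand, the Slc16a1 window chr3:104638414-104638663 on the plus strand, and the Gys1 window chr7:45434589-45434838 on the plus strand.
Hk2: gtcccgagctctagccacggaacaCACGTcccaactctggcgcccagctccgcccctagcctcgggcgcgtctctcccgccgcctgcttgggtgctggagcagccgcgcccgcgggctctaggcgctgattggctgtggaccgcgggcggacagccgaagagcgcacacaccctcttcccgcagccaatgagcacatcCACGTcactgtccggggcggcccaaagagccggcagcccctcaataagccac
Pgk1: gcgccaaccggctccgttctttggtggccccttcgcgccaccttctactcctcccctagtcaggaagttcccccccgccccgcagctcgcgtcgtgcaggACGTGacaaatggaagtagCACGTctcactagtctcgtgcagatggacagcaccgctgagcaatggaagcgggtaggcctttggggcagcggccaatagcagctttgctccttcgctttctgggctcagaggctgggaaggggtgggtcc
Slc16a1: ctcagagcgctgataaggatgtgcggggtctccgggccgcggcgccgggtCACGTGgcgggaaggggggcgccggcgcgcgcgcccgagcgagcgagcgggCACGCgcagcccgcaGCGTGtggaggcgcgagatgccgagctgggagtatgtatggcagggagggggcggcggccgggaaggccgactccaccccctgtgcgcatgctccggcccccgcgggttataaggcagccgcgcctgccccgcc
Gys1: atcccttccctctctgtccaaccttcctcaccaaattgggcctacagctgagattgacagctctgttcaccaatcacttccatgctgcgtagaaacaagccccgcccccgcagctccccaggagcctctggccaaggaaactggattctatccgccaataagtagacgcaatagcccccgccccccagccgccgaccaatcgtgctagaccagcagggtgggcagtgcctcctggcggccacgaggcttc
The Hk2 window holds 2 matches, Pgk1 holds 2, Slc16a1 holds 4, of which the palindrome CACGTG counts on both strands, and Gys1 holds 0. RefSeq windows were found for 34 of 35 members, all but Slc2a3. Matches were present in 23 of the 34 (67.6%), in 8 of the 12 members that rose (66.7%) and in 15 of the 22 that were not called (68.2%). Among all windows the share was 42.9% of 19584, and among those of tested genes 55.6% of 10923. The matches are a description of sequence and not of binding.

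RNA of the main glucose transporter rose. Slc2a1 (chr4:119108711-119137983, GRCm38), which encodes GLUT1, the basal glucose transporter of most cells, was at 11.5, 18.2, 18.7 and 18.3 CPM in K-Ctrl tumors 1 to 4 and at 47.6, 22.4, 35.3 and 45.9 CPM in K-Setd2KO tumors 1 to 4. The groups did not overlap, and K-Setd2KO 2 lay nearest to the controls. The change was 2.27-fold (log2 fold change 1.18, SE 0.260, adjusted p = 0.022 in edgeR). The call was lost when any of 4 tumors was left out, K-Ctrl 1 or 3 or K-Setd2KO 1 or 4, at log2 fold changes of 1.04 to 1.24 and adjusted p of 0.051 to 0.053. It was also lost with a replicate block (1.15, adjusted p = 0.061) and with a sex term (1.11, adjusted p = 0.064). Slc2a3, the high-affinity GLUT3 of neurons and activated leukocytes, was at 4.25, 3.03, 2.68 and 0.535 CPM in K-Ctrl and at 1.85, 0.535, 62.8 and 5.31 CPM in K-Setd2KO. K-Setd2KO 3 alone was high, and the log2 fold change of 2.73 (adjusted p = 0.195) became -0.11 without it.

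Of the hexokinase genes, whose enzymes phosphorylate glucose on entry, the inducible isoform rose. Hk2 (chr6:82725025-82774454), whose promoter is printed above, was at 151, 135, 175 and 148 CPM in K-Ctrl and at 412, 368, 268 and 279 CPM in K-Setd2KO. Every K-Setd2KO tumor was above every control (2.18-fold, log2 fold change 1.12, SE 0.167, adjusted p = 0.0074). Hk1, the constitutive isoform, was at 87.9, 100.2, 88.1 and 116 CPM in K-Ctrl and at 138, 150.5, 87.0 and 91.6 CPM in K-Setd2KO, so that the groups overlapped (adjusted p = 0.431). Hkdc1, a hexokinase-like gene next to Hk1 on chromosome 10, was at 35.6, 28.5, 46.5 and 33.3 CPM in K-Ctrl and at 54.2, 65.1, 45.1 and 20.5 CPM in K-Setd2KO (adjusted p = 0.468). Counts per kilobase of exon put Hk2 at 57.9% ± 2.32 of the hexokinase total in the controls (SD, n = 4) and at 71.4% ± 3.77 in the 4 K-Setd2KO tumors, with no overlap.

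Of the 3 subunit genes of phosphofructokinase-1, the committed step of glycolysis, 1 rose. Pfkl, the liver-type subunit (chr10:77986947-78010083), was at 65.1, 56.0, 65.1 and 56.2 CPM in K-Ctrl and at 189, 138, 187 and 144 CPM in K-Setd2KO. No tumor of the groups overlapped, and the rise was 2.72-fold (log2 fold change 1.44, SE 0.142, edgeR adjusted p = 0.0031). Pfkm, the muscle-type subunit, was at 19.5, 20.9, 15.5 and 21.8 CPM in K-Ctrl and at 17.8, 17.7, 22.1 and 15.4 CPM in K-Setd2KO (log2 fold change -0.09, SE 0.171, adjusted p = 0.773). Pfkp, the platelet-type subunit, was at 60.4, 61.1, 60.2 and 51.8 CPM in K-Ctrl and at 43.8, 35.5, 46.5 and 51.2 CPM in K-Setd2KO. Its groups just missed each other, at 51.2 against 51.8 CPM, and its log2 fold change of -0.40 (SE 0.136) had an adjusted p of 0.083.

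Isoform shares, taken per kilobase within a step so that genes of different length can be set side by side, were compared in 19 genes over 10 steps by a two-sided exact permutation test of the tumors. Pfkl made up 53.2, 48.4, 56.0 and 49.8% of phosphofructokinase-1 RNA in K-Ctrl tumors 1 to 4 and 80.1, 76.3, 77.4 and 75.5% in K-Setd2KO tumors 1 to 4. The mean moved from 51.9% ± 3.42 to 77.3% ± 2.01 (SD, n = 4), a difference of 25.5 percentage points, the largest of the 19. Pfkm took 24.8% ± 3.92 in K-Ctrl and 12.8% ± 1.51 in K-Setd2KO, and Pfkp 23.4% ± 1.44 and 9.85% ± 1.80. In both of these the groups were apart, as they were for Hk2, for Hk1 (26.3% ± 4.33 against 17.4% ± 1.36) and for Hkdc1 (15.8% ± 2.13 against 11.3% ± 3.43). Each of these 6 shares had an exact p of 0.0286, the smallest that 70 assignments allow, and an adjusted p of 0.090 over the 19, so no share passed 0.05. The other 13 had an exact p of 0.057 or more. Summed over its 3 subunit genes, phosphofructokinase-1 stood at 26.6 ± 0.909 CPM per kilobase in K-Ctrl and 48.3 ± 6.98 in K-Setd2KO, 1.82-fold, and the 3 hexokinase genes at 44.0 ± 3.75 and 78.3 ± 18.0, 1.78-fold.

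**Figure D2:**
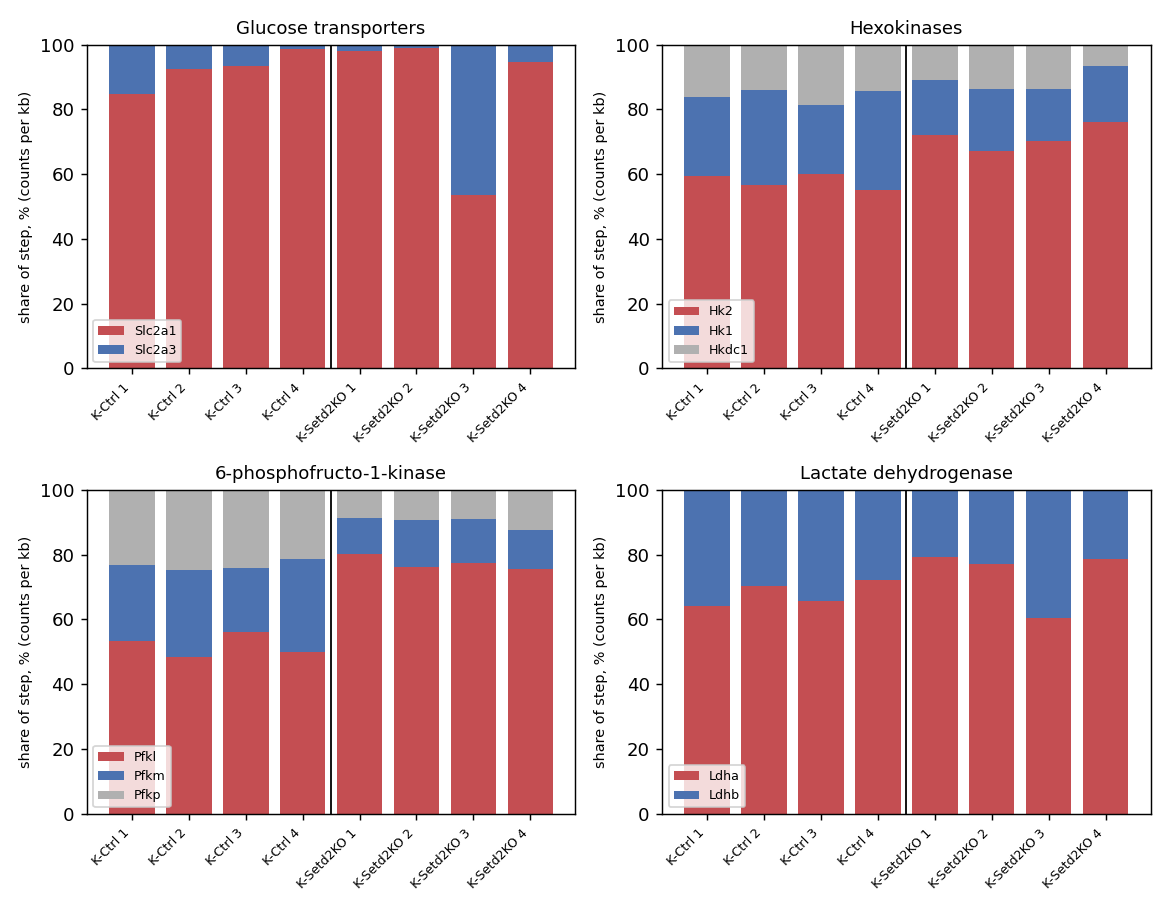
Share of each isoform (y axis, percent of the counts per kilobase of its step) in each of the 8 tumors (x axis), for glucose transporters, hexokinases, phosphofructokinase-1 and lactate dehydrogenase. The black line parts K-Ctrl from K-Setd2KO. Pfkl takes 48.4 to 56.0% in K-Ctrl and 75.5 to 80.1% in K-Setd2KO, and K-Setd2KO 3 stands apart in Slc2a1 and Ldha.

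RNA rose for 3 abundant genes of the enzymes that split fructose-1,6-bisphosphate, interconvert its triose products and oxidize them. Aldoa (chr7:126795234-126809108), the main aldolase outside liver and brain, was at 345, 360, 386 and 338 CPM in K-Ctrl and at 649, 632, 573 and 630.5 CPM in K-Setd2KO. The spread within each group was small beside the gap (1.74-fold, log2 fold change 0.80, SE 0.113, adjusted p = 0.0064). Aldoc, the brain-type aldolase, was at 17.5, 18.9, 26.0 and 10.2 CPM in K-Ctrl and at 17.6, 14.5, 32.8 and 14.2 CPM in K-Setd2KO, and its groups overlapped.

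Tpi1 (chr6:124810586-124814296), which interconverts the triose phosphates so that both feed glycolysis, had the highest log2 fold change of the called members in the reported fit, but lay below Pfkl with chromosome medians removed (1.29 against 1.40) and with a sex term (1.52 against 1.54). Its level was 111, 112, 119 and 122 CPM in K-Ctrl and 444, 262, 310.5 and 339 CPM in K-Setd2KO (2.93-fold, log2 fold change 1.55, SE 0.164, adjusted p = 0.0039). The K-Ctrl tumors differed from each other by little, and K-Setd2KO 2 was the lowest of its group. Gapdh (chr6:125161715-125166467), which makes NADH at the first oxidation, was at 334, 422, 394 and 372 CPM in K-Ctrl and at 896, 566, 727 and 708 CPM in K-Setd2KO (1.90-fold, log2 fold change 0.93, SE 0.162, adjusted p = 0.011). Gapdh is a common reference transcript, and here it did not hold level between the groups. Its 90 near-identical copies in the annotation held counts equal to 3.10% of its own, and adding them changed no count of calls. The copies' counts do not measure how many Gapdh reads match a copy equally well, so this addition does not settle that limit.

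Pgk1 and Eno1, on the way from Gapdh to pyruvate, also passed the test. Pgk1 (chrX:106187100-106203699), which makes the first ATP of the pathway, was at 46.6, 48.1, 45.4 and 53.4 CPM in K-Ctrl and at 80.8, 65.7, 58.4 and 65.4 CPM in K-Setd2KO (1.40-fold, log2 fold change 0.48, SE 0.128, adjusted p = 0.039). Eno1 (chr4:150236721-150248879), the main enolase, was at 58.8, 90.8, 76.5 and 90.0 CPM in K-Ctrl and at 158, 116, 94.0 and 159 CPM in K-Setd2KO (1.67-fold, log2 fold change 0.74, SE 0.206, adjusted p = 0.047). K-Setd2KO 3 was just above the highest control for Eno1. Counts in near-identical copies of Eno1 came to 14.6% of its own, so part of its reads cannot be placed with certainty. Pgk1 is identical to its copies Pgk1-rs7 and Gm5537 over 1255 and 1252 bases, so the same limit holds for it. How many Pgk1 reads this concerns was not tested. Pgk1 lost the call when any of 6 tumors was left out (all but K-Ctrl 4 and K-Setd2KO 3, log2 fold change 0.39 to 0.49, adjusted p 0.054 to 0.117), and Eno1 when any of 7 was left out (all but K-Setd2KO 3, log2 fold change 0.62 to 0.81, adjusted p 0.053 to 0.117). Eno1 was also not called with upper-quartile factors, limma voom, a replicate block, a sex term or length and GC removed (log2 fold change 0.50 to 0.74, adjusted p 0.051 to 0.174), and Pgk1 with no filter, a replicate block or a sex term (0.41 to 0.49, adjusted p 0.075 to 0.136).

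Between Pgk1 and Eno1, the mutase step was not called. Pgam1, the main phosphoglycerate mutase, ran from 17.2 to 20.96 CPM in K-Ctrl and from 13.2 to 21.6 CPM in K-Setd2KO. Its log2 fold change was -0.17 (SE 0.179, edgeR adjusted p = 0.568). Pgam1 is identical to its annotated copy Pgam1-ps2 over 765 bases, so reads from that stretch cannot be placed with certainty. How many Pgam1 reads this concerns was not tested. Bpgm, which makes the hemoglobin ligand bisphosphoglycerate in red cells, ran from 30.4 to 68.9 CPM in K-Ctrl and from 30.0 to 44.5 CPM in K-Setd2KO (adjusted p = 0.343). The summed hemoglobin and other erythroid markers were highest in K-Ctrl 1 and K-Ctrl 4, at 808 and 405 CPM against 76.4 to 203 CPM in the other 6 tumors, and these were also the tumors with the most Bpgm, at 68.9 and 58.5 CPM. The part of red cells in the Bpgm level was not tested. Eno2, the neuronal enolase, was near the bottom of the range at 0.985, 3.28, 1.80 and 2.68 CPM in K-Ctrl and 2.00, 3.14, 3.88 and 2.40 CPM in K-Setd2KO.

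RNA of the main pyruvate kinase, lactate dehydrogenase and lactate carrier genes rose. Pkm (chr9:59656368-59679375), the pyruvate kinase of most tissues outside liver, was at 455, 447, 414.5 and 433 CPM in K-Ctrl and at 818, 625, 663 and 843 CPM in K-Setd2KO. No control came near the K-Setd2KO range (1.68-fold, log2 fold change 0.75, SE 0.138, adjusted p = 0.012). The counts are per gene and do not tell its M1 and M2 splice forms apart. Ldha (chr7:46841475-46855627), the lactate dehydrogenase subunit that favors pyruvate reduction, was at 384, 418, 401 and 482 CPM in K-Ctrl and at 765, 856, 611 and 619 CPM in K-Setd2KO (1.69-fold, log2 fold change 0.76, SE 0.153, adjusted p = 0.016). Without K-Ctrl 3 its adjusted p was 0.057, at a log2 fold change of 0.73.

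Ldhb, the heart-type subunit, was at 101, 83.6, 99.6 and 88.4 CPM in K-Ctrl and at 95.2, 121, 190.6 and 79.8 CPM in K-Setd2KO, where tumor 3 alone was far above the controls (adjusted p = 0.327). Ldha made up 64.3 to 72.1% of lactate dehydrogenase RNA per kilobase in K-Ctrl and 77.0 to 79.2% in K-Setd2KO 1, 2 and 4, but 60.3% in K-Setd2KO 3. Slc16a1 (chr3:104638668-104658462), which encodes the lactate and pyruvate carrier MCT1, was at 64.3, 72.7, 72.4 and 90.2 CPM in K-Ctrl and at 126, 104, 99.5 and 134 CPM in K-Setd2KO (1.55-fold, log2 fold change 0.63, SE 0.148, adjusted p = 0.027). Its call was lost without K-Ctrl 1, 2 or 3 or K-Setd2KO 1 or 4 (log2 fold change 0.55 to 0.61, adjusted p 0.059 to 0.081). Slc16a3, the lactate exporter MCT4 that hypoxia induces, was scarce, at 5.29, 8.40, 6.69 and 3.03 CPM in K-Ctrl and 3.44, 4.05, 3.51 and 4.79 CPM in K-Setd2KO (log2 fold change -0.58, SE 0.332, adjusted p = 0.277).

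No gene passed the test among the bifunctional Pfkfb enzymes, Fbp1, Gpi1 and the pyruvate dehydrogenase kinases. The 3 bifunctional Pfkfb enzymes, which make and remove the activator of phosphofructokinase-1, had log2 fold changes of 0.30 (Pfkfb2), -0.35 (Pfkfb3) and 0.18 (Pfkfb4), all with overlapping groups, and their sum per kilobase differed 1.07-fold. Fbp1, the fructose-1,6-bisphosphatase that runs the phosphofructokinase reaction backwards, ran from 1.34 to 9.73 CPM in K-Ctrl and from 7.48 to 66.4 CPM in K-Setd2KO (log2 fold change 2.53, SE 0.732, adjusted p = 0.054). K-Setd2KO 3 was the low value of its group and lay within the control range. Fbp1 was called without that tumor (log2 fold change 2.87, adjusted p = 0.040), with DESeq2 (adjusted p = 0.0011), with upper-quartile factors (0.049) and with the stricter filter of 10 counts per tumor (0.047), and its log2 fold change was 1.62 with a sex term (adjusted p = 0.360). Gpi1, the isomerase between hexokinase and phosphofructokinase-1, ran from 159 to 169 CPM in K-Ctrl and from 192 to 215 CPM in K-Setd2KO, with no overlap (1.26-fold, log2 fold change 0.33, SE 0.0965, adjusted p = 0.052).

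Among the pyruvate dehydrogenase kinases, which shut off pyruvate oxidation by phosphorylating the dehydrogenase, none passed the test. Pdk1 ran from 26.7 to 39.4 CPM in K-Ctrl and from 42.8 to 109.9 CPM in K-Setd2KO, with tumor 3 at the top (log2 fold change 0.89, SE 0.289, adjusted p = 0.073). Pdk2 ran from 24.6 to 34.9 CPM and from 32.9 to 49.9 CPM (log2 fold change 0.50, adjusted p = 0.090), and Pdk3 from 29.5 to 37.4 CPM and from 27.4 to 58.2 CPM (adjusted p = 0.376). Pdk4, the isoform linked to fasting and fat use, ran from 15.0 to 27.6 CPM in K-Ctrl and from 5.999 to 29.6 CPM in K-Setd2KO (log2 fold change -0.55, adjusted p = 0.478). Only K-Setd2KO 2 was as high as the controls for Pdk4, and without that tumor it fell with an adjusted p of 0.049.

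Toward glycogen, Gys1 (chr7:45434844-45456619), the muscle-type glycogen synthase, was at 44.4, 45.9, 50.2 and 55.2 CPM in K-Ctrl and at 71.8, 91.9, 94.2 and 70.7 CPM in K-Setd2KO (1.68-fold, log2 fold change 0.75, SE 0.140, adjusted p = 0.013). It overlaps Ruvbl2 on the opposite strand, and the strand setting of the counting is not given in the sources used here. The same limit holds for Aldoa with Fam57b, Tpi1 with Spsb2 and Gapdh with Iffo1. It also holds for Slc2a1 with Gm12867 and Gm12868, and for Hk2 with Gm17034. Among the members not called, Pfkp overlaps Pitrm1 and Pgm1 overlaps Itgb3bp, beside others. Gbe1, the branching enzyme, was at 35.3, 23.2, 24.4 and 20.3 CPM in K-Ctrl and at 31.8, 27.5, 33.1 and 23.4 CPM in K-Setd2KO (adjusted p = 0.612). Of the phosphoglucomutases, which join glucose-1-phosphate to glycolysis, Pgm1 ran from 51.1 to 91.5 CPM in K-Ctrl and from 98.8 to 126 CPM in K-Setd2KO with no overlap (log2 fold change 0.59, SE 0.180, adjusted p = 0.062), and Pgm2 from 8.92 to 14.4 CPM and from 9.07 to 13.8 CPM (adjusted p = 0.580).

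**Figure D3:**
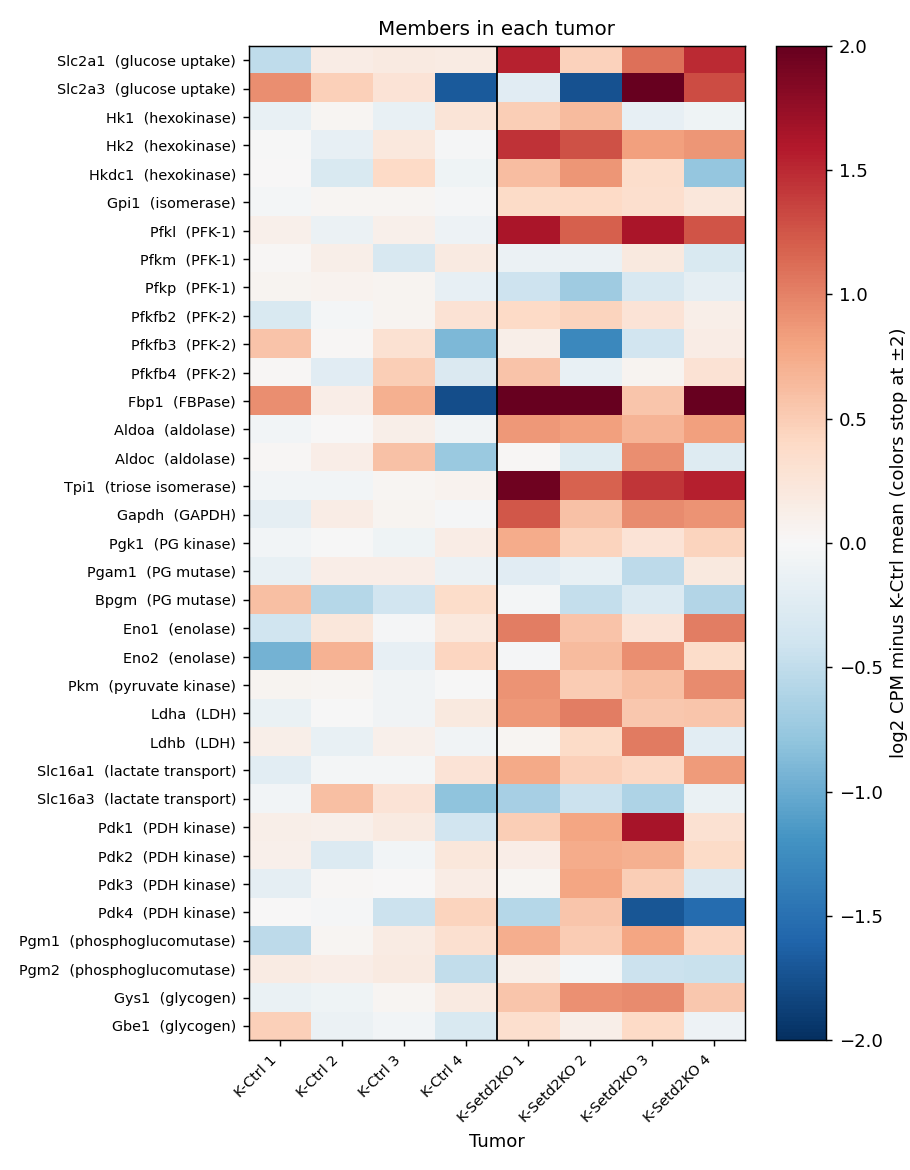
Log2 CPM of each member (y axis) in each tumor (x axis) minus the K-Ctrl mean, with the black line parting K-Ctrl from K-Setd2KO and colors held at 2 in either direction. The rows of the 12 called members are red in all 4 K-Setd2KO tumors, whereas rows such as Slc2a3, Pdk1, Ldhb and Pdk4 vary within that group.

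The K-Setd2KO tumors were not alike in this pathway. Of the 12 risen members, K-Setd2KO 1 held the highest value of its group for 7, while K-Setd2KO 3 held the lowest for 6 and K-Setd2KO 2 the lowest for 5. K-Setd2KO 3 also stood apart in members that were not called, with the most Slc2a3, Pdk1, Ldhb and Aldoc and the least Fbp1 and Pdk4 of its group. It was the only male K-Setd2KO tumor, so within this group sex and tumor cannot be told apart. Leaving K-Setd2KO 3 out gave 13 members that rose, with Fbp1 added, and 0 that fell. Across all 8 fits with a tumor left out, 7 to 13 members rose, the lowest without K-Ctrl 3, and 0 or 1 fell. Hk2, Pfkl, Aldoa, Tpi1, Gapdh, Pkm and Gys1 passed the test in each of the 19 alternative fits, and the other 5 lost it in at least 1.

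Sex was not balanced between the groups, with 1 and 3 female tumors. With a term for sex 8 members rose and 0 fell, and Slc2a1, Pgk1, Eno1, Ldha and Slc16a1 lost the call while Pdk1 passed. The log2 fold changes of the 5 with that term were 1.11 for Slc2a1, 0.41 for Pgk1, 0.50 for Eno1, 0.68 for Ldha and 0.57 for Slc16a1, at adjusted p of 0.059 to 0.174, beside 1.18, 0.48, 0.74, 0.76 and 0.63 without it. Pgk1 and Pdk3 are the 2 members on the X chromosome.

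Of the members, 8 lie on chromosome 6, which was raised as a whole in 3 of the 4 K-Setd2KO tumors. The median of 839 tested chromosome 6 genes, less that of the other autosomes, was -0.04, 0.03, 0.00 and 0.00 on the log2 scale in K-Ctrl tumors 1 to 4 and 0.35, -0.03, 0.31 and 0.40 in K-Setd2KO tumors 1 to 4. The 8 members are Slc2a3, Hk2, Tpi1, Gapdh, Bpgm, Eno2, Ldhb and Pdk4, of which 3 rose, and of the 27 members elsewhere 9 rose. In K-Setd2KO 2, where the chromosome was not raised, Hk2 was 1.28, Tpi1 1.18 and Gapdh 0.58 above the K-Ctrl mean on the log2 scale. With the median of each chromosome removed in each tumor, the log2 fold change was 0.90 for Hk2 (adjusted p = 0.026), 1.29 for Tpi1 (0.0044) and 0.67 for Gapdh (0.017), and 12 members rose as before.

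**Figure D4:**
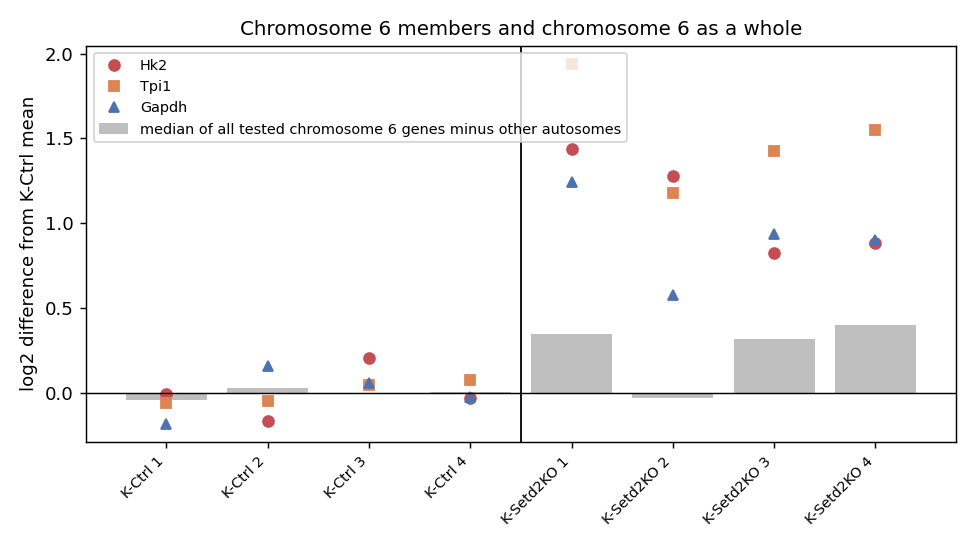
Median of chromosome 6 genes less that of other autosomes (gray bars) and the levels of Hk2, Tpi1 and Gapdh (points) in each tumor (x axis), both as log2 difference from the K-Ctrl mean (y axis). The bar is at -0.03 in K-Setd2KO 2 and at 0.31 to 0.40 in the other 3, and the points lie above their bars in all 4.

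RNA of markers of other cell types also differed between the groups. Beside the leukocyte markers, 4 of 7 macrophage and 2 of 7 endothelial markers fell, with median log2 fold changes of -1.70 and -1.45. So did 2 of 6 alveolar type 1 markers (median -0.91), 1 of 6 T cell (-1.71), 1 of 5 ciliated (-1.32), 1 of 6 fibroblast (-0.89), 1 of 7 neutrophil (0.51) and 1 of 4 cardiac muscle markers (-0.15), while 0 of the tested B cell, smooth muscle, erythroid, neural and club markers were called in either direction (medians -1.85, -1.02, -1.74, -1.38 and -0.78). The summed levels were 474 to 1447 CPM against 160 to 315 CPM for macrophage markers and 508 to 1939 CPM against 200 to 520 CPM for endothelial markers. Of 5 general epithelial markers, Epcam and Krt18 rose and the median was 0.44, with sums of 1782 to 2761 CPM in K-Ctrl and 2526 to 3065 CPM in K-Setd2KO. Of 7 alveolar type 2 markers, 1 rose (Sftpb) and the median was 0.00. In bulk RNA, fewer cells of a type and less RNA per cell cannot be told apart, and the part of this shift in the members' levels was not tested. The 6 skeletal muscle markers summed to 0.803 to 2.28 CPM in K-Ctrl and 1.76 to 4.62 CPM in K-Setd2KO, with Myh1 and Myh4 at 0 counts in every tumor and the 1 that could be tested, Mylpf, at a log2 fold change of 1.13 (adjusted p = 0.129).

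Of 96 further glucose genes listed from neighboring pathways, 83 were tested. Of these 6 rose (7.23%) and 5 fell (6.02%), near the 4.97% and 7.74% of all tested genes, and 25 (30.1%) had an unadjusted p under 0.05, against 29.9% of all tested genes. Among isoforms of glycolysis outside the members, Pgam2, the muscle-type mutase, rose from 1.60 to 2.59 CPM in K-Ctrl to 4.74 to 8.32 CPM in K-Setd2KO (log2 fold change 1.54, SE 0.301, adjusted p = 0.015). Fbp2, the muscle-type fructose-1,6-bisphosphatase, was at 109, 102, 149.7 and 47.2 CPM in K-Ctrl and at 467, 389.9, 106 and 378 CPM in K-Setd2KO (log2 fold change 1.71, adjusted p = 0.046), and as with Fbp1 the low tumor was K-Setd2KO 3. Bsg, the chaperone that brings MCT1 to the membrane, rose from 316 to 421 CPM to 578 to 708 CPM (log2 fold change 0.79, adjusted p = 0.011), while Slc16a7, the high-affinity carrier MCT2, fell from 65.1 to 88.6 CPM to 34.2 to 55.4 CPM (-0.67, adjusted p = 0.040).

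In the non-oxidative pentose phosphate branch, which exchanges sugars with glycolysis, Tkt (log2 fold change -0.48, adjusted p = 0.029) and Taldo1 (-0.52, adjusted p = 0.042) fell, and the other 6 tested genes of that pathway were not called. Gpd2, the mitochondrial glycerol-3-phosphate dehydrogenase that passes electrons from cytosolic NADH to the respiratory chain, fell from 48.2 to 57.1 CPM in K-Ctrl to 29.6 to 33.2 CPM in K-Setd2KO (-0.78, SE 0.111, adjusted p = 0.0058). In glycogen handling, the primer protein Gyg fell (-0.92, adjusted p = 0.017), and the lysosomal glucosidase Gaa (0.52, adjusted p = 0.025) and the phosphorylase kinase subunit Phka1 (0.77, adjusted p = 0.043) rose. Pgm3, of the hexosamine branch, rose (0.83, adjusted p = 0.039). None of 10 genes of pyruvate entry into mitochondria, 4 of gluconeogenesis, 7 of the malate-aspartate NADH shuttle and 5 glucose-responsive regulators passed the test. Gpd2, of the glycerol phosphate shuttle, was listed with the hexosamine and glycerol branches.

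**Figure D5:**
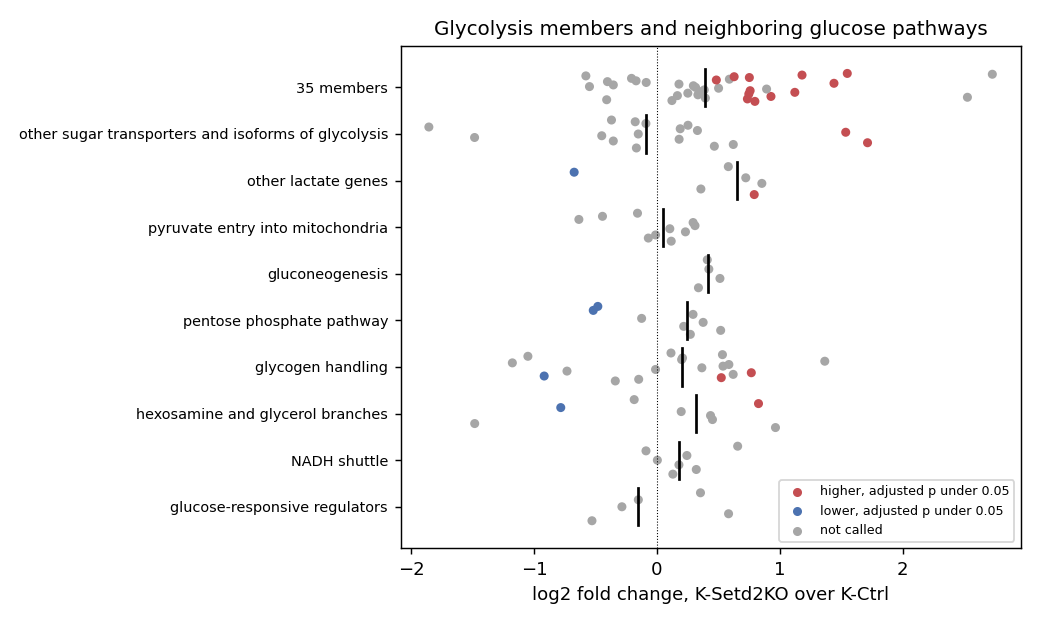
Log2 fold change, K-Setd2KO over K-Ctrl (x axis), of each tested gene in the 35 members and in 9 neighboring glucose lists (y axis), with black lines at the medians and colors for the call. The members hold 12 red and 0 blue points, and the 9 lists together 6 red and 5 blue points.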

How the data were processed

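Raw whole-number read counts per gene for the 8 tumors were deposited by the authors in 1 table. Per the labels' processing notes, STAR 2.5.2b, featureCounts 1.5.0-p1 and build GRCm38.p4 were used, on paired-end libraries from a stranded poly(A) kit; the annotation release and strand setting are not given in the sources used here. The labels' extraction text speaks of cell lines, whereas the series' design speaks of flash-frozen tumors. Gene identifiers were named by GENCODE M21 (99.3% matched).

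All counts entered edgeR 4.0.16 (R 4.3.3): filterByExpr, TMM factors, robust quasi-likelihood fit with genotype only, Benjamini-Hochberg adjustment over 14929 genes. CPM are counts scaled to 1000000 of TMM-adjusted library size, and log2 values per tumor carry a prior count of 2. SE is the fitted standard error of the log2 fold change. The fit was tested on simulated counts. Every member is reported, with values per tumor where its step holds a called member, and other glucose genes are named where called, at most 5 a list. The members and lists were chosen with earlier results of these data known. Phosphoglycerate mutases and glycogen genes were left out of the isoform shares, since their members catalyze different reactions. Alternatives were RLE and upper-quartile factors, other filters, DESeq2 1.42.0, limma voom 3.58.1, a replicate block, a sex term, length and GC, chromosome medians, near-identical copies (at least 95% identity over 50% of the copy) and each tumor left out. Replicate numbers showed no clear pairing of the tumors. No 2 libraries of the same group agreed within sampling noise. Fold changes of genes with few counts are limited by depth, which differed 3.67-fold. Promoter sequences are RefSeq's, on GRCm38.p6. The driver allele that all mice share is not reported here.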

Additional observations from a re-analysis of the deposited data

Results flagged for a closer look

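In 10 of 134 groups of 4 tumors, 1 value lay farther from the other 3 than Dixon's 95% limit allows, where chance alone gives about 6.7. Of the levels, these were Slc2a1 in K-Ctrl 1 (11.5 CPM, others 18.2 to 18.7), Slc2a3 in K-Setd2KO 3 (62.8 CPM, others 0.535 to 5.31), Pfkp in K-Ctrl 4 (51.8 CPM, others 60.2 to 61.1) and Pgm2 in K-Ctrl 4 (8.92 CPM, others 13.9 to 14.4).

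Of the isoform shares per kilobase, 3 of the 6 values that stood apart came from K-Setd2KO 3. They were Slc2a1 at 53.7% of glucose transporter RNA (others 94.7 to 98.9%), Aldoa at 93.8% of aldolase (others 97.0 to 97.5%) and Ldha at 60.3% of lactate dehydrogenase (others 77.0 to 79.2%). The remaining 3 were Pfkp in K-Setd2KO 4 (12.5%, others 8.70 to 9.16%), Pfkfb4 in K-Ctrl 3 (44.1%, others 35.1 to 36.5%) and Pdk1 in K-Ctrl 4 (9.29%, others 15.0 to 16.1%). The cause was not tested for any of them.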

How the results depend on the processing

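The count of members that rose was 7 to 16 over all alternatives and its direction held throughout. Leaving out a tumor gave 7 to 13 members called, 7 to 13 higher and 0 to 1 lower, the lone lower call being Pdk4 without K-Setd2KO 2. The median log2 fold change of the members was 0.37 to 0.53 over those fits and 0.49 with limma voom. The count of other glucose genes called was 18 with DESeq2, 5 with the sex term and 3 to 14 with a tumor left out. With the replicate number as a block, 9 members rose and 0 fell, and 6 other glucose genes were called. The replicate numbers correlated at -0.07, -0.04, 0.19 and -0.04 and only number 3 matched its own number best. These values show no clear pairing, and whether tumors of the same number shared a batch or handling was not tested. Signs turned in members and shares near 0 or resting on 1 tumor. With a tumor left out, the log2 fold change of Aldoc ran from -0.23 (without K-Setd2KO 3) to 0.35, with -0.07 without K-Ctrl 4, and that of Slc2a3 from -0.11 (without K-Setd2KO 3) to 3.13. The share difference of Eno1 ran from -0.13 (without K-Setd2KO 1) to 0.90 points, with -0.06 without K-Ctrl 2 and -0.04 without K-Setd2KO 4, and that of Slc2a1 from -10.2 points to 4.86 points, the latter without K-Setd2KO 3. The causes were not tested, beyond the smaller number of tumors in these fits. With 4 tumors a group no isoform share could pass 0.05 after adjustment unless more of the 19 had separated fully, and members under 10 CPM, such as Eno2 and Slc16a3, carry few counts in the shallowest library.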
